A study of Oryctolagus cuniculus with 30 samples.

Results

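A set of 10 genes that mark connective tissue fibroblasts was followed in rabbit vocal fold mucosa after injury and after injection of a gel. They are PI16, SCARA5, CLEC3B, DPT, PDGFRA, PDGFRB, TCF21, PRRX1, GSN and VIM, chosen by symbol from a list of lamina propria fibroblast identity genes, and 10 of the 10 were found among 31346 genes in the deposited tables, of which 16731 carry a symbol. The 30 libraries came from 15 New Zealand white rabbits, 3 in each of 5 groups, with the left and right fold of each animal sequenced separately. In the groups Col1, VFLP (man), VFLP (au) and injury only, the superficial mucosa of both folds had been stripped, and the control animals had neither injury nor injection. The 3 injected groups received 20 µL on each side at day 7 after injury: type I collagen in Col1, and in the other groups 2 preparations labelled VFLP (man) and VFLP (au). VFLP stands for a vocal fold lamina propria hydrogel, and the labels used here do not spell out the words in brackets. Tissue was taken 28 days after treatment, a time that the labels do not define for animals without an injection.

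The lamina propria is the pliable connective tissue under the epithelium of the vocal fold, and its fibroblasts make and turn over the matrix that vibrates. In mouse tissues, Pi16 marks adventitial fibroblasts that are thought to act as a reserve for more specialised ones, and several of the other genes are shared by most resting fibroblasts. No gene in the list is a mark of fibroblasts alone: PDGFRB is also a receptor of pericytes, VIM is made by endothelial and immune cells, and GSN is made by muscle and epithelium. Each library is a piece of whole mucosa, so fewer cells of a type and less RNA per cell cannot be told apart.

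Libraries held 14.2 to 31.9 M gene reads, and animals 34.7 to 56.3 M after their folds were summed. Levels are given in CPM, reads of a gene per M reads of the animal after TMM normalization, a scaling that sets the bulk of genes level between libraries. TMM factors were 0.631 to 0.933 in control animals and 0.978 to 1.18 in the other groups. With library totals alone, without such factors, the median of all genes sat at log2 values of 0.51, 0.65, 0.53 and 0.43 above control in Col1, VFLP (man), VFLP (au) and injury only, and every one of the 10 genes still lay below control in the 4 groups. All 6 control libraries and 5 injury only libraries were from batch C, and the remaining injury only library and all 18 from injected animals from batch D. Skeletal muscle markers, 13 genes, took 1.20 to 6.89% of gene reads in control libraries and 0.00581 to 2.31% in libraries of the injured groups.

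All 10 genes were highest in control mucosa, and the same animals stood out across genes. The highest level of each gene belonged to control animal 2 for 7 genes and to control animal 3 for the other 3. Control animal 2 also had the lowest TMM factor (0.631), which raises its CPM for every gene. VFLP (man) animal 3 had the lowest level of 5 genes, Col1 animal 2 of 3, and Col1 animal 1 and VFLP (man) animal 1 of 1 each. On the average of the 10 centred log2 CPM profiles, Col1 stood at -0.65 ± 0.39, VFLP (man) at -0.79 ± 0.34, VFLP (au) at -0.20 ± 0.25, injury only at 0.15 ± 0.52 and control at 1.49 ± 0.44 (SD, n = 3 each). A test over the 5 groups by edgeR's quasi-likelihood method, with Benjamini-Hochberg adjustment over 17770 genes and a threshold of 0.05, passed 10 of the 10, with adjusted p from 0.000481 (PDGFRB) to 0.0338 (DPT). By the same test 28.4% of all genes passed.

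**Figure D1:**
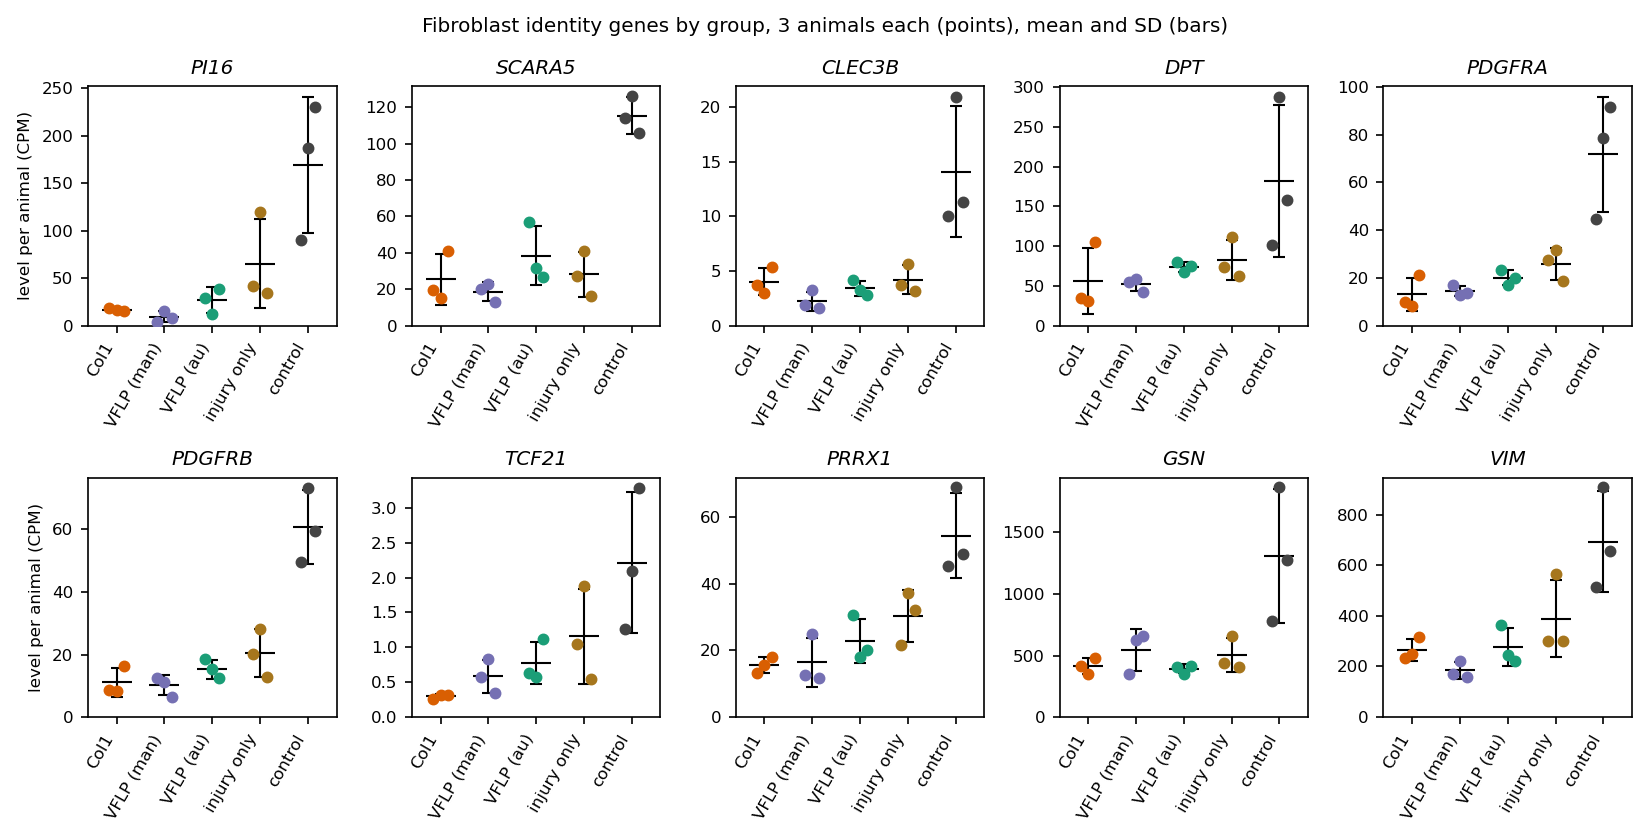
Level of each of the 10 genes in CPM on a linear axis from 0, with 1 point per animal and bars for the mean and SD of 3 animals, in the order Col1, VFLP (man), VFLP (au), injury only and control. The control mean is highest for every gene, 1 Col1 animal reaches the control range for DPT, and the injury only range reaches into the control range for PI16, TCF21, DPT and VIM.

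PI16, a secreted peptidase inhibitor, covered the widest range of the 10. Its levels were 18.5, 16.7 and 15.0 CPM in Col1, 4.31, 15.6 and 8.47 CPM in VFLP (man) and 28.7, 12.1 and 39.0 CPM in VFLP (au). Injury only animals had 41.8, 119 and 34.6 CPM, and control animals 90.1, 187 and 230 CPM. No injected animal reached the lowest control, whereas injury only animal 2 lay above control animal 1. PI16 was 10.1-fold lower in Col1 than in control (log2 -3.33 ± 0.62 SE, adjusted p = 0.00211 by edgeR), 17.9-fold lower in VFLP (man) (log2 -4.16 ± 0.65, adjusted p = 0.000469) and 6.35-fold lower in VFLP (au) (log2 -2.67 ± 0.61, adjusted p = 0.00807). In injury only against control the log2 difference of -1.25 ± 0.56 did not pass (adjusted p = 0.125).

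SCARA5, a scavenger receptor that takes up ferritin, separated the groups differently. It had 19.8, 15.2 and 41.2 CPM in Col1, 20.2, 22.8 and 12.8 CPM in VFLP (man), 57.0, 31.5 and 26.7 CPM in VFLP (au), 27.2, 40.9 and 16.4 CPM in injury only, and 114, 126 and 106 CPM in control. The 3 control animals were close together and far above the other 12, among which VFLP (man) lay wholly below VFLP (au) and the other pairs of groups overlapped. Injury only fell below control by a log2 of -1.94 ± 0.43, or 3.83-fold (adjusted p = 0.00942), the largest change among the 10 genes in that comparison. Against control it was 4.55-fold lower in Col1, 6.20-fold lower in VFLP (man) and 3.01-fold lower in VFLP (au), with adjusted p of 0.00286, 0.00072 and 0.0165. The VFLP (au) call was lost without VFLP (au) animal 2 (log2 -1.46, adjusted p = 0.0645) and without animal 3 (log2 -1.40, adjusted p = 0.0576).

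CLEC3B encodes tetranectin, a secreted lectin that binds plasminogen. Its levels were 3.69, 3.01 and 5.38 CPM in Col1, 1.85, 3.25 and 1.64 CPM in VFLP (man), 4.16, 3.28 and 2.78 CPM in VFLP (au), 3.74, 5.68 and 3.17 CPM in injury only and 10.03, 21.0 and 11.3 CPM in control. Every control animal exceeded every injured one, and the 4 injured groups overlapped. The fall against control was 3.50-fold in Col1, 6.26-fold in VFLP (man), 4.13-fold in VFLP (au) and 3.02-fold in injury only, and each passed (adjusted p 0.00392, 0.000338, 0.00323 and 0.0123). Without control animal 2, whose CLEC3B level was the highest, the injury only value was -1.23 with an adjusted p of 0.0559.

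DPT encodes dermatopontin, a small matrix protein that binds decorin and collagen fibrils. It had 34.5, 30.8 and 105 CPM in Col1, 54.7, 58.3 and 42.1 CPM in VFLP (man), 80.3, 67.4 and 74.8 CPM in VFLP (au), 74.2, 111 and 62.1 CPM in injury only and 101, 288 and 158 CPM in control. Col1 animal 3 and injury only animal 2 reached the level of control animal 1, while both VFLP groups stayed below all controls. DPT was 3.22-fold lower in Col1 (adjusted p = 0.016) and 3.52-fold lower in VFLP (man) (adjusted p = 0.00963) than in control. The log2 difference was -1.30 ± 0.46 in VFLP (au) (adjusted p = 0.0537) and -1.10 ± 0.46 in injury only (adjusted p = 0.102), and neither passed. Single animals decided some of these calls. The Col1 value no longer passed without control animal 2 (-1.22, adjusted p = 0.0774), Col1 animal 1 (-1.42, adjusted p = 0.0624) or Col1 animal 2 (-1.40, adjusted p = 0.0534), and without control animal 1 DPT passed in VFLP (au) (-1.60, adjusted p = 0.0221) and in injury only (-1.39, adjusted p = 0.0498). Counted without regard to strand, DPT had 0.918 to 0.929 of its stranded reads, so some of its reads also touch a feature annotated on the other strand.

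PDGFRA and PDGFRB, the receptors that platelet-derived growth factors use to drive the growth and migration of mesenchymal cells, changed side by side. PDGFRA had 10.1, 8.30 and 21.2 CPM in Col1, 17.1, 13.0 and 13.6 CPM in VFLP (man), 23.4, 16.9 and 19.9 CPM in VFLP (au), 27.3, 31.9 and 18.7 CPM in injury only and 44.9, 78.8 and 91.7 CPM in control. PDGFRB had 8.76, 8.20 and 16.3 CPM in Col1, 12.6, 11.4 and 6.57 CPM in VFLP (man), 18.5, 15.3 and 12.4 CPM in VFLP (au), 20.1, 28.2 and 12.9 CPM in injury only and 49.5, 73.3 and 59.6 CPM in control. For both receptors the control animals lay above the other 12 animals. PDGFRA was 5.44-fold lower in Col1, 4.92-fold lower in VFLP (man), 3.58-fold lower in VFLP (au) and 2.52-fold lower in injury only than in control, with adjusted p of 0.000669, 0.000505, 0.00377 and 0.0221. PDGFRB was 5.48-fold, 5.96-fold, 3.95-fold and 2.89-fold lower in the same order, with adjusted p of 0.000643, 0.000238, 0.00261 and 0.0106. In injury only the PDGFRA call was lost without control animal 2 (-1.31, adjusted p = 0.0637), control animal 3 (-1.12, adjusted p = 0.0724) or injury only animal 3 (-1.11, adjusted p = 0.0739). The count ratio of PDGFRA to PDGFRB, which is not corrected for gene length, averaged 1.15 ± 0.14 in Col1, 1.52 ± 0.49 in VFLP (man), 1.33 ± 0.25 in VFLP (au), 1.31 ± 0.16 in injury only and 1.17 ± 0.33 in control (SD, n = 3 each), and the ranges overlapped between all groups.

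TCF21, a basic helix-loop-helix factor that directs fibroblast fate in the mouse heart and other organs, was the least abundant by reads, with 13 to 115 reads per animal. It had 0.265, 0.313 and 0.324 CPM in Col1, 0.571, 0.828 and 0.351 CPM in VFLP (man), 0.627, 0.575 and 1.12 CPM in VFLP (au), 1.05, 1.89 and 0.540 CPM in injury only and 1.26, 2.10 and 3.28 CPM in control. Col1 lay below every animal of the other groups, and injury only reached into the control range. The difference from control passed in Col1 (log2 -2.87 ± 0.54, adjusted p = 0.00214), in VFLP (man) (log2 -1.92 ± 0.51, adjusted p = 0.0118) and in VFLP (au) (log2 -1.51 ± 0.51, adjusted p = 0.0434), but not in injury only (log2 -0.71 ± 0.51, adjusted p = 0.332). The VFLP (man) value did not pass without control animal 3 (-1.52, adjusted p = 0.0504). That of VFLP (au) did not pass without control animal 2 (-1.59, adjusted p = 0.0887), control animal 3 (-1.12, adjusted p = 0.154), VFLP (au) animal 1 (-1.40, adjusted p = 0.121) or VFLP (au) animal 2 (-1.34, adjusted p = 0.133).

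PRRX1, a homeobox factor of the mesenchyme, had 13.2, 15.7 and 18.2 CPM in Col1, 12.6, 24.9 and 11.8 CPM in VFLP (man), 30.5, 18.2 and 20.3 CPM in VFLP (au), 21.8, 37.2 and 32.2 CPM in injury only and 45.4, 68.9 and 49.1 CPM in control. The control animals lay above all others. PRRX1 was 3.47-fold lower in Col1 (adjusted p = 0.0017), 3.32-fold lower in VFLP (man) (adjusted p = 0.00142) and 2.37-fold lower in VFLP (au) (adjusted p = 0.0133). In injury only the log2 difference of -0.76 ± 0.30 did not pass (adjusted p = 0.0843), although the ranges did not overlap. For VFLP (au) the call was lost without control animal 2 (-1.08, adjusted p = 0.056) and without VFLP (au) animal 2 (-1.10, adjusted p = 0.057).

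GSN and VIM, both abundant, serve the cytoskeleton: gelsolin severs and caps actin filaments, and vimentin builds the intermediate filaments of mesenchymal cells. GSN had 416, 348 and 480 CPM in Col1, 353, 626 and 658 CPM in VFLP (man), 410, 350 and 415 CPM in VFLP (au), 441, 662 and 409 CPM in injury only and 778, 1870.0 and 1279 CPM in control. Control animals lay above all others, and GSN was lower in Col1 (3.16-fold, adjusted p = 0.0026), VFLP (man) (2.40-fold, adjusted p = 0.00886), VFLP (au) (3.34-fold, adjusted p = 0.00312) and injury only (2.56-fold, adjusted p = 0.0118). Without injury only animal 1 the injury only value was -1.29 with an adjusted p of 0.0504. VIM had 233, 251 and 315 CPM in Col1, 171, 223 and 159 CPM in VFLP (man), 364, 247 and 220.2 CPM in VFLP (au), 302, 565 and 300.2 CPM in injury only and 514, 909 and 658 CPM in control. Injury only animal 2 lay above control animal 1, and no injected animal did. VIM fell in Col1 (2.60-fold, adjusted p = 0.00446), VFLP (man) (3.75-fold, adjusted p = 0.000518) and VFLP (au) (2.50-fold, adjusted p = 0.0077), and had a log2 difference of -0.75 ± 0.28 in injury only (adjusted p = 0.0737). VIM passed in injury only without control animal 1 (-0.92, adjusted p = 0.0412) and without injury only animal 2 (-1.03, adjusted p = 0.0346).

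Part of the list was lower after injury without an injection. In injury only against control, fitted with a batch term, 5 of the 10 fell (SCARA5, PDGFRA, PDGFRB, CLEC3B and GSN), where 13.7% of 17815 genes fell, and 10 of 10 had a lower estimate. All 3 injury only animals lay below all control animals for 6 of the 10, and for 21.9% of all genes. The median log2 change of the 10 was -1.29, against 0.02 over all genes tested. Without control animal 2, 3 of the 10 passed and 7.46% of all genes fell, and without control animal 1, 7 passed and 15.5% fell. A fit with the muscle level as a covariate passed 2, SCARA5 (-2.31, adjusted p = 0.0445) and PDGFRB (-1.91, adjusted p = 0.0409), where 3.53% of all genes fell, and put PI16 at -0.03.

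In each injected group against control, nearly the whole list fell. The test passed 10 of 10 in Col1, where 18.6% of all genes fell, 10 of 10 in VFLP (man), where 20.5% fell, and 9 of 10, all but DPT, in VFLP (au), where 16.7% fell. Median log2 changes were -1.996, -2.11 and -1.66, against 0.12, 0.13 and 0.11 over all genes. All injected animals lay below all control animals for 9, 10 and 10 of the 10, and for 23.0%, 24.1% and 21.9% of all genes. The same control animals served in all 4 comparisons. Injected and control animals were from different batches, linked only by the 1 injury only library of batch D, so material and batch can hardly be told apart. With a batch term resting on that library none of the 10 passed by edgeR (4, 6 and 3 at an unadjusted p under 0.05, and 0, 29 and 0 of all genes past the adjusted test), and their medians were -1.35, -1.55 and -1.06. With muscle level as a covariate, no gene of the whole table passed by edgeR in any of the 3 (4, 3 and 4 of the 10 at an unadjusted p under 0.05), and the medians of the 10 were -1.69, -1.73 and -1.33. Summed muscle markers in control lay above those of every injected animal, so this fit can hardly tell muscle from group.

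**Figure D2:**
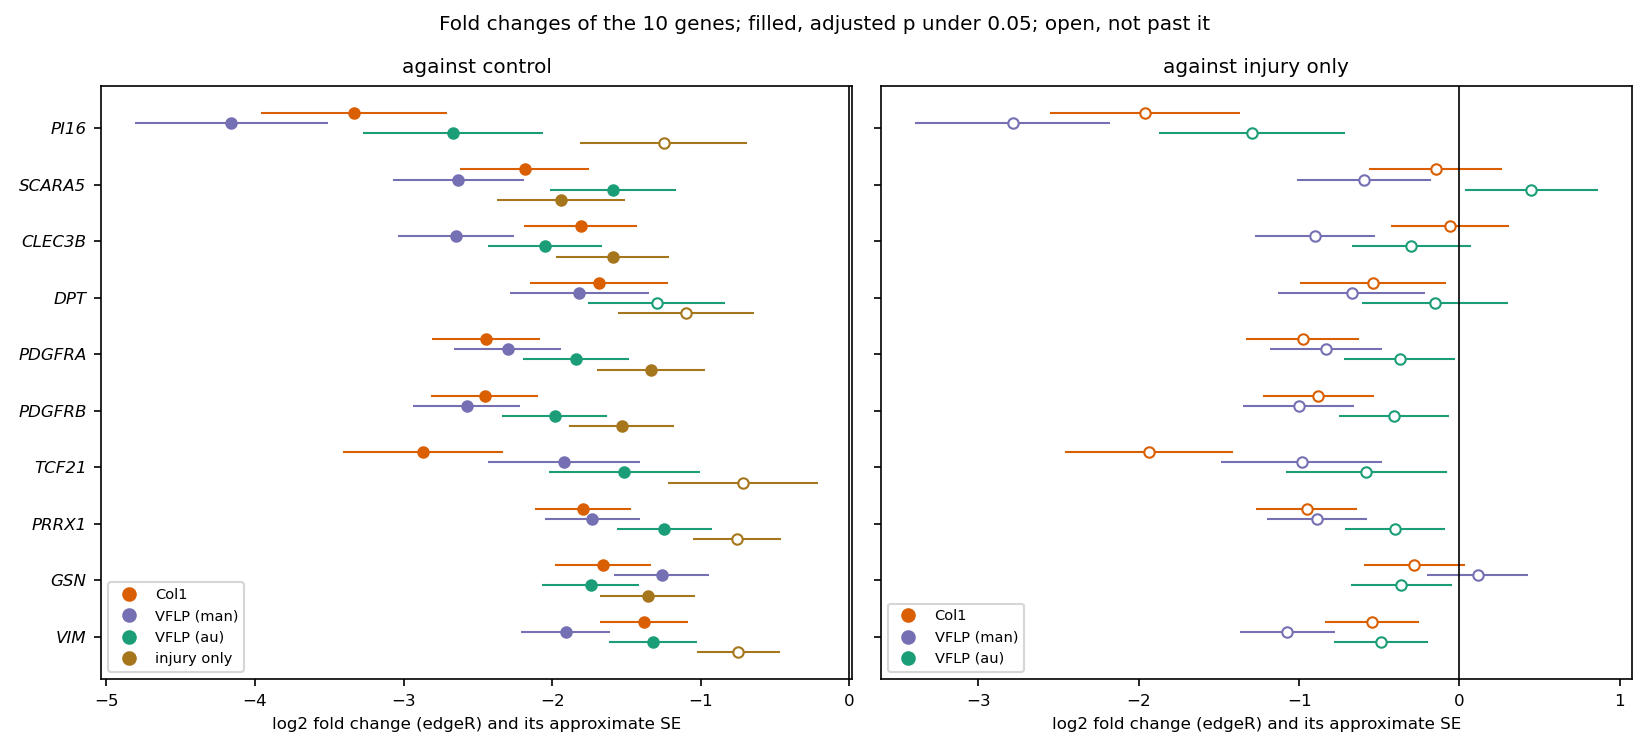
Log2 fold change and approximate SE of each gene by edgeR, against control on the left (Col1, VFLP (man), VFLP (au) and injury only) and against injury only on the right (the 3 injected groups). Filled points passed an adjusted p of 0.05 and open ones did not. Every point against control lies below 0, and no point against injury only is filled.

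Against injury only, the comparison that asks what a gel adds to the injury, no gene of the 10 passed in Col1, VFLP (man) or VFLP (au) by edgeR. By that test 0.0% of all 17770 genes passed in Col1, 1.06% in VFLP (man) and 0.0% in VFLP (au). The estimates were lower in 10, 9 and 9 of the 10, with medians of -0.71, -0.89 and -0.39, against 0.00467, 0.0037 and 0.0131 over all genes, and 5, 6 and 1 had an unadjusted p under 0.05, as did 14.2%, 17.2% and 12.9% of all genes. DESeq2 passed 2 of the 10 in Col1, PI16 (-1.98, adjusted p = 0.035) and TCF21 (-1.97, adjusted p = 0.034), 2 in VFLP (man), PI16 (-2.79, adjusted p = 0.000126) and VIM (-1.08, adjusted p = 0.0126), and none in VFLP (au), while limma voom passed none in the 3 groups. By DESeq2 1.18%, 5.14% and 0.551% of all genes were called lower. By edgeR the log2 difference in PI16 was -1.96 ± 0.59 in Col1 (adjusted p = 0.269), -2.79 ± 0.61 in VFLP (man) (adjusted p = 0.0506) and -1.29 ± 0.58 in VFLP (au) (adjusted p = 0.383). TCF21 was at -1.94 ± 0.53 in Col1 (adjusted p = 0.267) and VIM at -1.07 ± 0.30 in VFLP (man) (adjusted p = 0.0986). All animals lay below all injury only animals for 3 of the 10 in Col1 (PI16, TCF21 and PRRX1), 5 in VFLP (man) (PI16, PDGFRA, PDGFRB, DPT and VIM) and 0 in VFLP (au), and for 10.8%, 13.2% and 9.03% of all genes. Without VFLP (man) animal 2, PI16 (-3.37, adjusted p = 0.0393) and PRRX1 (-1.33, adjusted p = 0.0441) passed there, and without the injury only library of batch D, PI16 (-2.91, adjusted p = 0.0258) and VIM (-1.17, adjusted p = 0.0487) did. SCARA5 lay near its injury only level in Col1 (log2 -0.15 ± 0.41, adjusted p = 0.895) and above it in estimate in VFLP (au) (0.45 ± 0.41, adjusted p = 0.624), and GSN was at 0.12 ± 0.32 in VFLP (man) (adjusted p = 0.909). The injected animals were from batch D and all but 1 injury only library from batch C, and with a batch term the medians were -0.14 in Col1, -0.24 in VFLP (man) and 0.22 in VFLP (au).

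Between the 3 materials, which were all from batch D, no gene of the 10 was called. By edgeR none of the 10 passed in VFLP (man) against Col1, VFLP (au) against Col1 or VFLP (man) against VFLP (au), where 0.0%, 0.0% and 0.0505% of 17815 genes passed. Unadjusted p under 0.05 were held by 1, 1 and 2 of the 10, beside 10.3%, 4.65% and 8.36% of all genes, and DESeq2 and limma voom passed none. Median log2 differences of the list were -0.13, 0.51 and -0.55, with ranges over genes of -0.84 to 0.95, -0.24 to 1.36 and -1.49 to 0.48. The animals did not overlap for 2 genes in VFLP (man) against Col1 (TCF21 higher, VIM lower), 1 in VFLP (au) against Col1 (TCF21 higher) and 2 in VFLP (man) against VFLP (au) (SCARA5 and DPT lower), and for 15.0%, 9.37% and 14.3% of all genes.

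In estimate, the genes did not keep 1 ratio to each other. Taken relative to the mean of the other 9 genes on the log2 scale, PI16 stood at -1.21 in Col1, -2.17 in VFLP (man), -1.13 in VFLP (au) and -0.16 in injury only, each minus its relative level in control. SCARA5 showed another order, at -0.19, -0.43, 0.03 and -0.87. VIM lay above its control ratio in every group, at 0.88, 0.44, 0.42 and 0.54, as did PRRX1 (0.40, 0.54, 0.49 and 0.55) and DPT (0.40, 0.65, 0.59 and 0.33). A large fall of 1 gene raises the relative level of the other 9. GSN lay above its control ratio in Col1 (0.63) and VFLP (man) (1.17) and near it in VFLP (au) (0.05) and injury only (0.03). PDGFRB lay below it in every group, at -0.40, -0.37, -0.32 and -0.31. PDGFRA (-0.40, 0.04, -0.10 and -0.10), TCF21 (-0.53, 0.50, 0.30 and 0.41) and CLEC3B (0.42, -0.37, -0.32 and -0.40) had values on both sides of it. Within-group SDs of these relative levels were 0.44 to 0.80 for PI16, 0.24 to 0.46 for SCARA5, 0.094 to 0.28 for VIM and 0.18 to 0.59 for GSN, and these ratios were not tested.

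Genes outside the list were ranked by how closely their centred log2 CPM over the 15 animals followed the average profile of the 10, as a root mean square difference. Of 12273 genes with a symbol and a mean of at least 1 CPM, the nearest were DLC1 (0.151), CALHM2 (0.182), CYRIA (0.187), PLSCR4 (0.192) and CHST10 (0.196), while the median gene was at 0.975 and the 10 genes themselves ran from 0.248 (PDGFRB) to 0.853 (PI16). DLC1 had 8.33 ± 2.47 CPM in Col1, 6.64 ± 1.29 CPM in VFLP (man), 9.07 ± 1.81 CPM in VFLP (au), 11.5 ± 4.11 CPM in injury only and 31.7 ± 11.1 CPM in control (SD, n = 3 each). PLSCR4, a phospholipid scramblase, had 11.2 ± 4.64, 9.56 ± 1.95, 13.4 ± 1.57, 15.7 ± 6.18 and 38.5 ± 11.7 CPM in the same order.

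Most of the further fibroblast genes also had lower estimates, and 1 was called higher in each comparison with control. Of 24, the test passed 17 in Col1 against control (16 lower), 21 in VFLP (man) (20 lower), 17 in VFLP (au) (16 lower) and 12 in injury only (11 lower), with medians of -1.52, -1.85, -1.32 and -1.11. Over all genes, 18.6%, 20.5%, 16.7% and 13.7% were called lower in the same order. LAMA2, a laminin chain of basement membranes around muscle, nerve and connective tissue cells, had 4.34 ± 0.72, 3.12 ± 1.25, 5.98 ± 0.38 and 10.97 ± 3.63 CPM in those groups and 36.9 ± 7.81 CPM in control (SD, n = 3 each), with adjusted p of 0.000293, 4.51e-05, 0.00084 and 0.00262. LAMA2 was also the 1 gene of this list that passed in VFLP (man) against injury only (log2 -1.81 ± 0.31, adjusted p = 0.0427). MFAP5, a microfibril protein, was 7.61-fold lower in VFLP (man), 4.71-fold lower in VFLP (au) and 4.01-fold lower in injury only than in control (adjusted p 0.000176, 0.00214 and 0.00429). COL15A1, a collagen of the basement membrane zone, was 8.36-fold lower in Col1, 9.19-fold lower in VFLP (man) and 5.95-fold lower in VFLP (au) (adjusted p 0.0004, 0.000126 and 0.00129). SERPINF1 in Col1 (6.79-fold lower, adjusted p = 0.000506) and ABCA8 in injury only (3.41-fold lower, adjusted p = 0.00508) were next.

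Mesenchymal transcription factors showed the same direction beside TCF21 and PRRX1. Of 21 tested, 12 fell and 2 rose in Col1 against control, 15 fell and 2 rose in VFLP (man), 11 fell and 1 rose in VFLP (au), and 10 fell in injury only. Beside these, 18.6%, 20.5%, 16.7% and 13.7% of all genes fell, and 13.5%, 16.7%, 10.8% and 8.33% rose. ZEB1, a zinc finger repressor of epithelial genes, was 4.45-fold, 7.14-fold, 3.87-fold and 3.11-fold lower (adjusted p 0.000604, 8.33e-05, 0.00155 and 0.00399). HIC1, which marks quiescent mesenchymal progenitors in mouse muscle, was 11.3-fold lower in VFLP (man), 5.33-fold lower in VFLP (au) and 3.77-fold lower in injury only (adjusted p 0.000144, 0.00247 and 0.00703). TBX15, a T-box factor that skeletal muscle makes too, had 37.9 ± 16.1 CPM in Col1, 11.7 ± 9.97 CPM in VFLP (man), 84.2 ± 31.6 CPM in injury only and 571 ± 158 CPM in control (SD, n = 3 each), and passed against control in each (adjusted p 0.000934, 0.000112 and 0.00853). It also passed in VFLP (man) against injury only (log2 -2.84 ± 0.60, adjusted p = 0.0487). ZEB2 was 3.61-fold lower in Col1 (adjusted p = 0.000954) and EBF2 13.6-fold lower in VFLP (au) (adjusted p = 0.00364).

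Around the PDGF receptors, some ligands and co-receptors fell too. Of 19 genes for ligands, co-receptors, adaptors and responses, 7 fell in Col1 against control, 9 in VFLP (man), 8 in VFLP (au) and 5 in injury only, and none rose. List medians were -0.52, -1.12, -1.15 and -0.47, and 18.6%, 20.5%, 16.7% and 13.7% of all genes fell. LRP1, a large endocytic receptor that tempers PDGFRB signalling, had 24.4 ± 3.80, 24.7 ± 2.76, 32.8 ± 5.06 and 42.7 ± 6.23 CPM in those groups and 93.9 ± 15.4 CPM in control (SD, n = 3 each), with adjusted p of 0.000293, 4.51e-05, 0.00084 and 0.00196. It was called in VFLP (man) against injury only as well (log2 -0.79 ± 0.17, adjusted p = 0.05, just under the threshold before rounding). The ligand gene PDGFD fell 3.14-fold in Col1, 7.81-fold in VFLP (man) and 3.24-fold in injury only (adjusted p 0.00415, 0.000124 and 0.00668), and PDGFB 4.71-fold in VFLP (au) and 3.89-fold in injury only (adjusted p 0.00268 and 0.00448). NRP1, a co-receptor, was 2.71-fold, 5.62-fold and 3.70-fold lower in Col1, VFLP (man) and VFLP (au) (adjusted p 0.00431, 0.000143 and 0.00183).

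Partners of VIM and GSN in the cytoskeleton were divided. Over all genes, 18.6%, 20.5%, 16.7% and 13.7% fell and 13.5%, 16.7%, 10.8% and 8.33% rose against control, in the group order below. Of 14 partners tested, 4 fell and 1 rose in Col1 against control, 5 fell and 3 rose in VFLP (man), 4 fell and 1 rose in VFLP (au), and 4 fell and 1 rose in injury only, with medians of -0.05, -0.10, 0.07 and 0.05. Those with the smallest p were SVIL, SYNM and CFL2, which skeletal muscle also makes. SVIL, supervillin, was 4.43-fold, 8.22-fold, 3.89-fold and 3.07-fold lower in those groups (adjusted p 0.000873, 8.95e-05, 0.00223 and 0.00413). SYNM, an intermediate filament protein that joins vimentin and desmin, was 6.89-fold, 18.5-fold, 5.49-fold and 3.80-fold lower (adjusted p 0.00113, 9.64e-05, 0.00311 and 0.01), and it passed in VFLP (man) against injury only (log2 -2.11 ± 0.45, adjusted p = 0.05 after rounding). CFL2, the cofilin of muscle, was 7.96-fold lower in Col1, 12.9-fold lower in VFLP (man) and 3.64-fold lower in injury only (adjusted p 0.000929, 0.000179 and 0.0101), and PLEC 2.05-fold lower in VFLP (au) (adjusted p = 0.00351).

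Markers of other cells moved in the same comparisons, and their part in the fall of the 10 genes was not tested. The fit with muscle as a covariate can hardly tell muscle from group, since control muscle sums lay above those of all injured animals. Summed muscle markers ran from 2105 to 6484 CPM in Col1, 451 to 2839 CPM in VFLP (man), 4304 to 10710 CPM in VFLP (au), 7042 to 16270 CPM in injury only and 38380 to 89190 CPM in control. Of the 13, 11, 12, 9 and 7 fell in Col1, VFLP (man), VFLP (au) and injury only against control. In these comparisons 18.6%, 20.5%, 16.7% and 13.7% of all genes fell, shares beside which the counts below are read. Pericyte and smooth muscle markers, 12 genes, summed to 397 to 1108, 169 to 423, 460 to 798, 673 to 1181 and 1717 to 4031 CPM in those 5 groups, and endothelial markers, 10 genes, to 190 to 220.4, 106 to 138, 121 to 228, 262 to 502 and 283 to 1083 CPM. Against control, 5, 8, 6 and 3 of the first list fell (1 rose in Col1 and 1 in VFLP (man)), and 7, 10, 10 and 2 of the second. Adipocyte markers (6 genes, 4 tested) summed to 36.9 to 67.0, 14.1 to 36.9, 42.5 to 102, 66.6 to 167 and 282 to 1531 CPM, with CIDEC at 0 in all 3 animals of every group and LEP at 0 in both VFLP groups. Schwann cell markers (8 genes) summed to 33.6 to 97.0, 23.0 to 67.2, 30.1 to 53.5, 71.7 to 107 and 115 to 200.1 CPM, and 4, 5, 5 and 2 of them fell. Cartilage markers (9 genes, 7 tested) summed to 12.4 to 64.4, 6.66 to 11.2, 9.57 to 17.0, 24.9 to 37.7 and 26.9 to 49.9 CPM, and 3, 4, 3 and 1 of them fell (1 rose in Col1). In injury only, the endothelial and cartilage counts were near the share of all genes that fell.

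Epithelial and immune markers followed other patterns, read beside the 13.5%, 16.7%, 10.8% and 8.33% of all genes that rose against control in Col1, VFLP (man), VFLP (au) and injury only. Squamous markers, 9 genes, summed to 24010 to 31850 CPM in Col1, 18020 to 32760 CPM in VFLP (man), 19810 to 29400 CPM in VFLP (au), 16570 to 19370 CPM in injury only and 11180 to 21460 CPM in control, with median log2 changes against control of 0.48, 0.43, 0.56 and -0.21. Secretory markers, 8 genes, summed to 1519 to 12980, 961 to 3372, 590 to 9120, 13240 to 23510 and 347 to 4591 CPM, and 2, 2, 1 and 4 of them rose against control, with BPIFB2 at 0 in all Col1 and control animals. Ciliated markers (9 genes) summed to 16.1 to 144, 45.4 to 686, 3.32 to 216, 160 to 720.1 and 5.09 to 103 CPM in the same order, and 1 rose in VFLP (man) and 2 in injury only. Of 10 lymphocyte markers 2, 4, 4 and 5 rose, with sums of 56.2 to 166, 45.8 to 272, 41.1 to 164, 152 to 442 and 146 to 214 CPM. Macrophage markers, 7 genes, summed to 56.0 to 72.7, 55.4 to 114, 52.6 to 67.7, 61.6 to 81.3 and 40.2 to 53.4 CPM, and 1 rose in each injured group, while 2 fell in Col1 and 1 each in VFLP (man) and injury only.

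**Figure D3:**
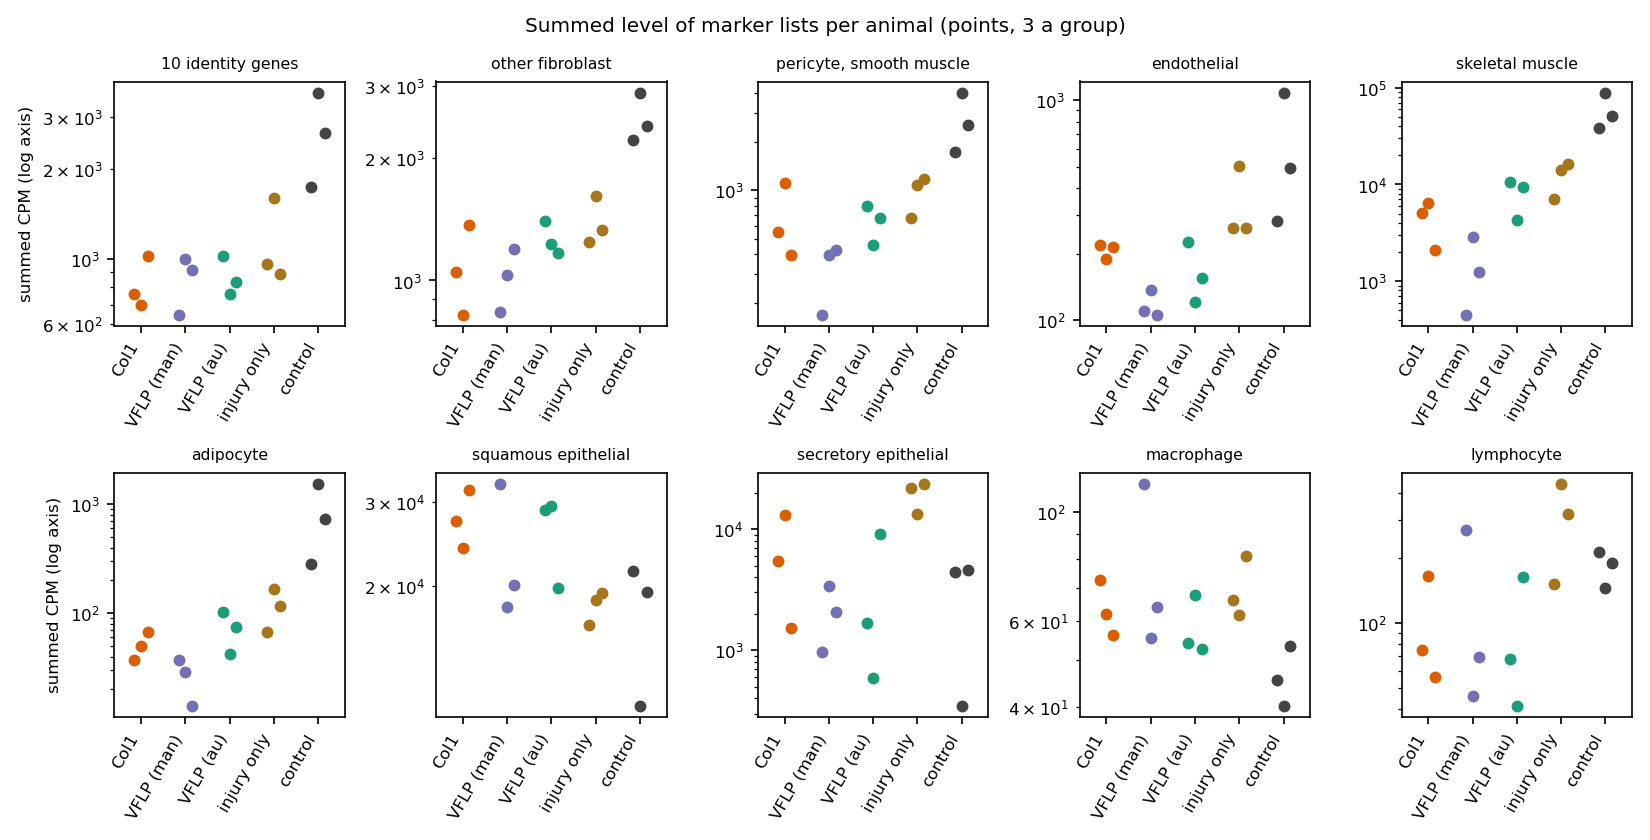
Summed CPM of 10 gene lists in each animal, on log axes, with the groups in the order Col1, VFLP (man), VFLP (au), injury only and control. The 10 fibroblast identity genes, other fibroblast genes, pericyte, muscle and adipocyte lists are highest in control, and the squamous, secretory and macrophage lists are not.

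The 2 folds of an animal did not always carry the same level. In control, the right fold was higher for 10 of 10 genes in each of the 3 animals, with median right over left ratios of 2.23, 1.91 and 2.18. TMM factors were lower in the right control folds (0.799, 0.591 and 0.723) than in the left (1.02, 0.687 and 0.904). Lower factors raise the right CPM of every gene, so part of these ratios comes from the scaling. In Col1 the right fold was lower for 9, 10 and 10 genes, with median ratios of 0.57, 0.52 and 0.52. Shares of all genes that were higher or lower in the right fold of single animals were not counted. VFLP (man) animals had medians of 0.483, 2.00 and 0.749, VFLP (au) animals 1.51, 0.667 and 1.79, and injury only animals 0.608, 0.635 and 0.906, of which the first compares folds from different batches. Over 14 animals with both folds in 1 batch, a test of right against left passed none of the 10 by edgeR, none had an unadjusted p under 0.05, 0.0% of 16819 genes passed (1342 with an unadjusted p under 0.05), and DESeq2 passed none of the 10 and 14 of all genes.

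A test of whether the side difference itself varied between groups, added after the data were seen, gave more. Injury only minus control was not tested on its own, and injury only animal 1, with folds in different batches, was left out. Outside that test, and with animal 1 included, 5 of the 10 genes were lower and 0 higher in the right fold of all 3 injury only animals. For animal 1 this sets a batch D fold against a batch C fold, and the share over all genes was not counted. The right minus left difference was lower in Col1 than in control for 8 of the 10, where 13.9% of all genes were lower, with log2 values from -1.20 ± 0.28 (GSN, adjusted p = 0.0121) to -2.60 ± 0.64 (SCARA5, adjusted p = 0.0149). TCF21 (-1.62 ± 1.11, adjusted p = 0.305) and PRRX1 (-2.02 ± 0.70, adjusted p = 0.0512) did not pass. In VFLP (man) minus control, PDGFRA (-1.66 ± 0.42, adjusted p = 0.0424) and GSN (-1.04 ± 0.27, adjusted p = 0.0459) passed, where 1.65% of genes were lower. In VFLP (au) minus control no gene of the 10 passed by edgeR (PDGFRA alone had an unadjusted p under 0.05), and 0.547% of all genes passed. Across the 5 groups together PDGFRA alone passed (adjusted p = 0.0488), where 6.39% of genes did. With library totals in place of TMM factors, 7, 0 and 0 of the 10 passed in Col1, VFLP (man) and VFLP (au), with list medians of -1.75, -1.17 and -0.47 against medians of all genes of 0.34, 0.32 and 0.29. Muscle markers differed by side too, at 5.24 to 6.89% of gene reads in right and 1.20 to 4.76% in left control folds. In Col1 they took 0.0464 to 0.501% in right and 0.418 to 1.14% in left folds. VFLP (man) had 0.0642 to 0.60% in right and 0.00581 to 0.0374% in left folds. VFLP (au) had 0.904 to 1.79% and 0.123 to 0.662%. There the median ratios of the 10 were 0.483, 2.00 and 0.749 in VFLP (man), and 1.51, 0.667 and 1.79 in VFLP (au). Injury only had 0.151 to 2.31% in right and 0.89 to 2.00% in left folds. The part of muscle in the side difference was not tested.

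**Figure D4:**
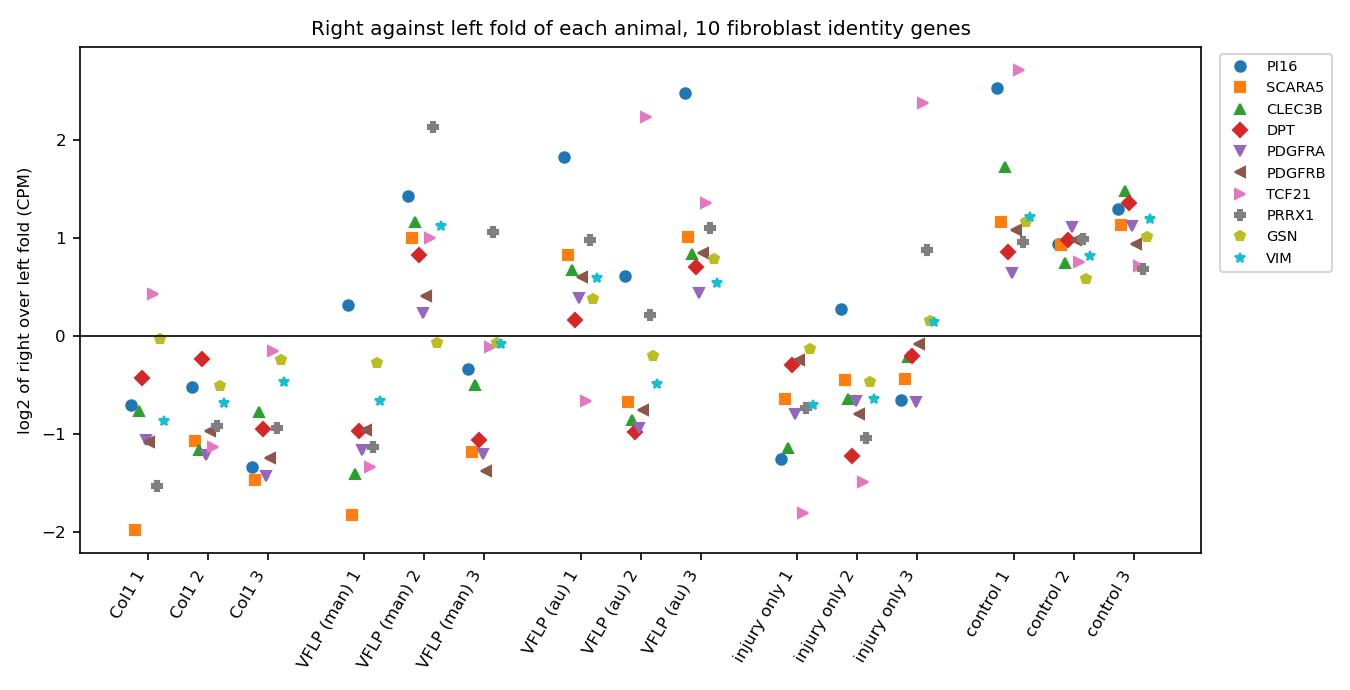
Log2 of the right over the left fold in CPM for each of the 10 genes (symbols) in each of the 15 animals, with a line at 0 for equal folds. All 30 control points lie above 0, and in Col1 all but 1 lie below it.

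Since the folds disagreed, the comparisons with control also depended on the fold. With right folds alone 10, 10, 8 and 7 of the 10 passed in Col1, VFLP (man), VFLP (au) and injury only, where 23.8%, 23.9%, 18.6% and 15.7% of all genes fell. With left folds alone 0, 7, 6 and 0 passed by edgeR (7, 8, 8 and 2 at an unadjusted p under 0.05), where 0.0723%, 12.0%, 8.32% and 0.0% of all genes fell. Left fold medians were -1.05, -1.69, -1.43 and -0.55, against right fold medians of -3.17, -2.88, -1.95 and -1.96. In left folds PI16 was at -2.20 in Col1 (adjusted p = 0.0582), -3.83 in VFLP (man) (adjusted p = 0.00108), -3.12 in VFLP (au) (adjusted p = 0.0135) and -0.50 in injury only (adjusted p = 0.579).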

How the data were processed

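RNA of whole vocal fold mucosa was sequenced as 30 libraries, prepared from RNA of high integrity by the KAPA mRNA HyperPrep kit and read as paired ends, per the labels' protocols. The authors deposited raw counts of reads per gene, unstranded and for each strand, made with STAR 2.7.10b per the submitters' processing notes. For the build and the gene models, "not given in the sources used here" applies. The column for the second read's strand, which holds most reads, was used. The 4 entries that name no gene (23.2 to 44.7% of a library) were left out.

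Here, counts of the 2 folds of an animal were summed and tested with edgeR 4.0.16 (R 4.3.3) by its quasi-likelihood F test, with TMM factors and filterByExpr at a minimum count of 10, which all 10 genes passed. Adjusted p-values follow Benjamini and Hochberg over all genes tested (threshold 0.05). Injury only against control and the comparisons between materials used 16 units and a batch term, 1 animal with a fold in each batch being divided, and the others 15 animals with no batch term. Right against left used 14 animals, each as a block. SE is the absolute log2 fold change over the square root of F, an approximation. The code was tested on simulated data. DESeq2 1.42.0, limma 3.58.1 (voom) and the settings in the closing section served as alternatives. Replicates are separate animals, and 2 folds of 1 animal always differed beyond counting error (chi-square over degrees of freedom 56.2 or more), so none was a copy of another. Read totals per animal set the counting error, which matters mainly for TCF21.

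The genes and lists were chosen with earlier results of these data known. Genes named are the 10, up to 3 past the test per other list and comparison by smallest p (or the 1 of smallest p), and the 5 of nearest profile. All 10 symbols were found in the RefSeq names, used for names alone, and promoter motifs were not analysed here.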

Additional observations from a re-analysis of the deposited data

Results flagged for a closer look

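In 50 pairs of gene and group, the highest and lowest of the 6 libraries were compared with the rest. The measure was the gap to the nearest other library, divided by the range of the 6. Chance meets this rule in about 1 of 20 groups of independent values. Libraries here were folds in pairs from the same animals, so that rate is only a rough guide. Over the 50 pairs 3 values stood apart, with gaps of 0.705 to 0.754 of the range, about as many as that rate would give. The right fold of VFLP (man) animal 2 had 22.3 CPM of PI16, where the other 5 libraries of the group had 3.82 to 9.25 CPM, and 39.0 CPM of PRRX1, where the others had 7.47 to 16.3 CPM. The left fold of injury only animal 2 had 155 CPM of DPT, where the others had 59.6 to 83.1 CPM.

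The right minus left difference (log2) was lower in Col1 than in control, by a test of the difference itself, for GSN (-1.20), SCARA5 (-2.60), PDGFRB (-2.12), CLEC3B (-2.23), PI16 (-2.45), DPT (-1.63), VIM (-1.77) and PDGFRA (-2.21). It was lower in VFLP (man) than in control for GSN (-1.04) and PDGFRA (-1.66), calls that were not made with library totals in place of TMM factors.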

How the results depend on the processing

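Of 1540 values of single genes under alternatives in the 7 comparisons with control or injury only, 1361 kept their direction and side of the threshold, 114 lost a call, 29 gained one and 36 changed sign. The cause of these changes was not tested unless stated. In injury only against control, 8 of the 10 genes passed with DESeq2, 0 with left folds alone, 2 with muscle level as a covariate, 3 with the 2 groups alone in the fit (fewer animals), and 3 to 7 with 1 animal left out (3 without control animal 2, 7 without control animal 1). In Col1 against injury only DESeq2 passed 2. In VFLP (man) against injury only 2 passed with DESeq2, 2 with the 30 libraries as separate samples, 3 with left folds alone, 2 without the injury only library of batch D, 1 with library totals, and 0 to 2 with 1 animal left out. Against control, Col1 passed 0 with left folds alone, 0 with a batch term and 0 with muscle as a covariate, VFLP (man) 0 with a batch term and 0 with muscle, and VFLP (au) 0 with a batch term and 0 with muscle. Over the 5 groups 6 passed with left folds alone, 1 with a batch term and 0 with muscle. Library totals gave 10, 9, 7 and 4 members in Col1, VFLP (man), VFLP (au) and injury only against control, with 5179 genes higher and 2111 lower, 7295 and 2259, 5452 and 1783, and 3785 and 1165, against 2396 and 3306, 2972 and 3651, 1918 and 2966, and 1484 and 2449 with TMM. For the side difference in Col1 minus control they gave 4303 higher and 1318 lower, against 2392 and 2344.

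No estimate that changed sign had passed the test, except TCF21 in VFLP (au) against control with a batch term (0.0214). With left folds alone these were TCF21 in injury only against control (0.0323) and, against injury only, SCARA5 (0.25) and CLEC3B (0.015) in Col1 and SCARA5 in VFLP (au) (-0.077). With a batch term they were, against injury only, SCARA5 (0.27), CLEC3B (0.80) and VIM (0.23) in Col1, TCF21 (0.33) and PRRX1 (0.0137) in VFLP (man), and PI16 (0.11), PDGFRA (0.018), TCF21 (0.73), PRRX1 (0.50), DPT (0.16), CLEC3B (0.56) and VIM (0.28) in VFLP (au). With muscle as a covariate they were CLEC3B (0.13) and GSN (0.0593) in Col1 and PRRX1 (0.0368) in VFLP (man), and with right folds alone PDGFRA (0.0352), TCF21 (0.48), PRRX1 (0.13), DPT (0.22) and CLEC3B (0.19) in VFLP (au). With 1 animal left out, SCARA5 ran from -0.69 to 0.21 and CLEC3B from -0.32 to 0.21 in Col1, GSN from -0.0413 to 0.35 in VFLP (man) and DPT from -0.32 to 0.10 in VFLP (au), all against injury only.

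With the animal number as a replicate block, 10, 10, 8 and 5 of the 10 passed in Col1, VFLP (man), VFLP (au) and injury only against control, TCF21 lost its call in VFLP (au) (-1.48, adjusted p = 0.0607), and CLEC3B in Col1 against injury only moved to 0.0256. Same-numbered animals deviated together at r above 0.1 in 8 of 30 pairs (median -0.022) and others in 17 of 60 (median 0.017). No pairing by number was seen, but so few animals cannot exclude one. With 3 animals a group, precision limits small differences. TCF21, at 13 to 115 reads per animal, is limited by depth as well.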
